A study of Mus musculus with 18 samples.

Results

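The sites described here are moderate CTCF binding sites that lie away from annotated promoters and carry little RNA polymerase II (Pol II) in the ventricles of adult mice. They were chosen by 3 properties of the deposited peak table: an autosomal peak with no gene assigned to it, a mean Pol II value below 20 and a mean CTCF value of at least 50 and below 150, each mean taken over 6 libraries. Of the 101256 peaks in the series, 61738 were autosomal peaks with no gene assigned, and 6846 of these met the rule, 6.76% of all peaks and 11.1% of the distal ones. Because these values selected the sites, their CTCF level and their low Pol II level are descriptions and carry no test. The rule used the mean of all libraries and no difference between them, but near a bound 1 genotype or 1 library can decide whether a site is included. At 690 of the 6846 sites the mean of at least 1 genotype was below 50, and at 48 it was at least 150.

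CTCF is a zinc finger protein that binds DNA at a long motif. Together with cohesin it anchors chromatin loops and marks the borders of topologically associating domains, and it separates enhancers from genes that they should not reach. Many of its sites lie far from promoters and are occupied in most cell types. In the series CTCF was the positive control of an immunoprecipitation protocol aimed at Pol II.

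Chromatin came from snap-frozen ventricles, with material of 2 adult hearts per preparation, and the 3 genotypes were WT, Trdn-as KO and Mettl3 KO. In Trdn-as KO mice a polyadenylation signal in the first exon of the long noncoding RNA Trdn-as stops its transcription. The allele was made in embryonic stem cells and bred onto C57BL/6. In Mettl3 KO mice a floxed Mettl3 gene, which encodes the m6A RNA methyltransferase, is deleted by the tamoxifen-dependent recombinase MerCreMer under the alphaMHC promoter, which is active in cardiomyocytes, so the other cells of the ventricle keep the gene. Tamoxifen was also given to floxed control mice without the recombinase, and whether these are the mice named WT is not given in the sources used here. Sex was not considered in the design. Each genotype had 2 CTCF libraries, 2 Pol II libraries and 1 IgG library as background, and the 3 input libraries were not analysed here. Nothing states that the replicates came from separate hearts, so p-values measure the spread between these libraries, which may be technical.

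The deposited values are counts divided by a size factor per library and rounded, called normalised signal here. From the spacing of these values, 1 read was worth 0.284 to 0.458 units in the CTCF libraries, which held 6789480 to 10163592 reads in peaks. One read was worth 0.945 to 2.04 units for Pol II and 2.55 to 6.57 units for IgG, where the libraries held only 273490 to 813041 reads in peaks. Promoters of all 7 cardiomyocyte markers carried Pol II, with mean values from 121.0 at Tnni3 to 10426 at Myh6, and those of 3 fibroblast markers had 175 to 248. The 2 neuronal markers had 2.0 and 3.33, and the 3 skeletal muscle markers 0.833 to 16.7. The promoter peak of the antisense gene annotated at Trdn (ENSMUSG00000112707) had Pol II values of 530 and 595 (WT), 140 and 100 (Trdn-as KO), and 503 and 491 (Mettl3 KO) hearts. Pol II at the Mettl3 promoter does not check a deletion confined to one cell type. The 6 peaks on the Y chromosome summed to 79 and 80 in the WT CTCF libraries, 51 and 50 in those of Mettl3 KO, and neither Trdn-as KO library had any (0). The Pol II and IgG libraries of Trdn-as KO hearts were also at 0 there, so genotype and the presence of Y signal cannot be told apart. The sites described are all autosomal. The ventricle holds several cell types, so a change in their shares and a change in binding per cell cannot be told apart.

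CTCF signal at the 6846 sites was similar in all 6 libraries. The median site had 80 and 71 (WT), 79 and 83 (Trdn-as KO), and 72 and 72 (Mettl3 KO). These medians correspond to 181 to 250 reads per site, so a typical site rested on many reads in every library. The middle 50% of sites lay between 65 and 97 in WT replicate 1 and between 58 and 87 in Mettl3 KO replicate 2. Every site reached a value of 10 in at least 2 CTCF libraries, so all 6846 passed the filter of the genotype test. The sites held 17.5% to 18.9% of all CTCF reads in peaks.

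Little Pol II and IgG signal accompanied the CTCF signal. The median site had a Pol II value of 7 in both WT libraries, against 8 and 10 (Trdn-as KO) and 7 and 6 (Mettl3 KO), or 3.75 to 7.41 reads. The IgG values at the median site were 23, 20 and 18 in WT, Trdn-as KO and Mettl3 KO, which is only 9.03, 3.05 and 3.91 reads because 1 IgG read is worth several units. On the RPM scale, which divides reads by the uniquely mapped reads of the library, the mean CTCF signal per site was 16.1 times the IgG signal in WT, 17.1 times in Trdn-as KO and 14.9 times in Mettl3 KO. Pol II over IgG was 1.22, 1.01 and 1.03 on the same scale. At the 2138 distal sites in the same CTCF range that had a Pol II mean of at least 20, the Pol II ratio was 7.53, 4.71 and 6.16. CTCF exceeded IgG by more than 5-fold at 6844 sites in WT, 6779 in Trdn-as KO and 6792 in Mettl3 KO.

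**Figure D1:**
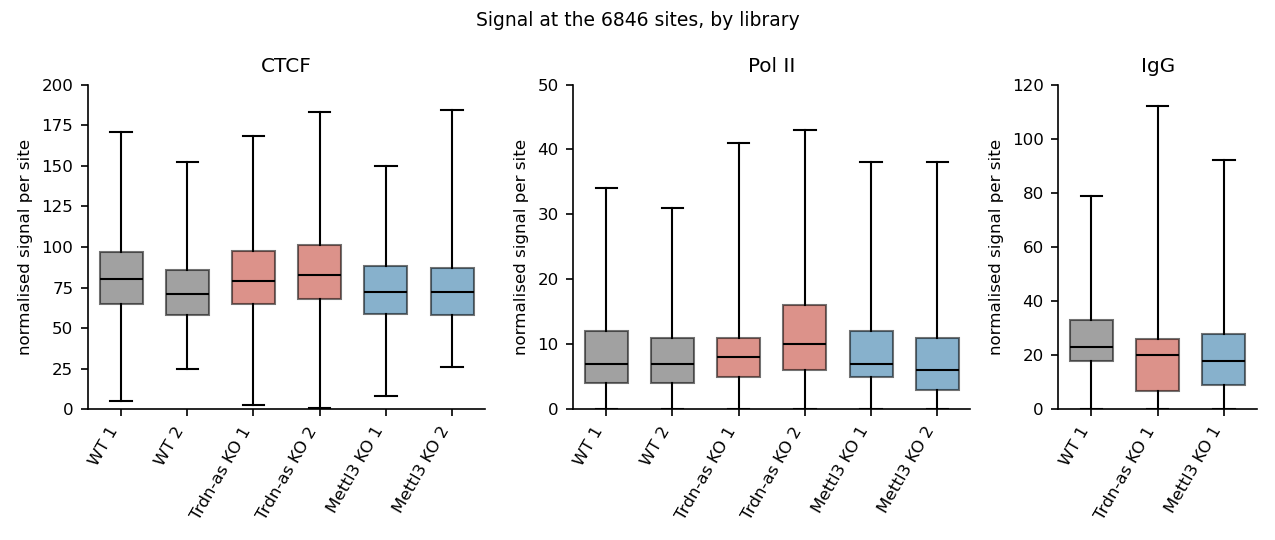
Normalised signal per site (vertical axes) at the 6846 sites in each library, for CTCF, Pol II and IgG. Boxes give the quartiles, the line the median and the whiskers the full range. CTCF medians run from 71 to 83 and Pol II medians from 6 to 10.

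The sites were medium-sized peaks, often inside genes. Their median width was 878 nt, against 575 nt for the 6413 distal sites of low Pol II with a mean CTCF value of 20 to below 50, and 1606 nt for the 96 with at least 150. Of the 6846 sites, 2812 (41.1%) had their centre inside the annotated body of a protein-coding gene that has a promoter peak in the table, and 4034 lay outside such genes. Exons and introns were not resolved. The median distance to the nearest start of such a gene was 40803 nt. The distance was at most 10 kb at 619 sites (9.04%) and over 100 kb at 1567 sites (22.9%). The next site of the same kind was a median of 61248 nt away, and 1216 sites had one within 10 kb. Sites inside and outside genes had close median CTCF means of 76.7 and 75.6. All autosomes held such sites, from 207 on chromosome 19 to 562 on chromosome 2, and their share of the distal peaks ran from 9.61% on chromosome 18 to 12.4% on chromosome 6.

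Values just inside and just outside the rule were close. The 2 sites just above the lower CTCF bound had means of exactly 50, at chr2:62458038-62458736 inside Ifih1 and chr2:161026826-161027623, and the 2 just below it both had 49.8. At the upper bound, chr13:59988167-59989540 had 149.7 and chr11:94937434-94938571 had 148.5, while the nearest excluded sites had 150.2 and 150.3. For Pol II the 2 last included sites had means of 19.8 and the 2 first excluded sites 20.

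Replicate libraries of one genotype were close at these sites. After the median difference between the libraries was removed, the replicates lay within 1.5-fold of each other at 6843 of 6846 sites in WT, 6804 in Trdn-as KO and 6845 in Mettl3 KO. The median replicate SD, pooled over the genotypes, was 0.12 on the log2 scale, or 8.33% of the value. It was 0.13 at sites with a mean CTCF value of 50 to below 75, 0.11 at 75 to below 100 and 0.10 at 100 to below 150. The sites of 20 to below 50 had a median SD of 0.16, and the strong sites 0.09. The SD between the 3 genotype means, each over 2 libraries, had a median of 0.11, and the replicate SD of such a mean of 2 a median of 0.08. These SDs keep the median difference between libraries. With size factors recomputed from the CTCF libraries alone, the median replicate SD was 0.0955 (6.84%) and the median SD between genotype means 0.0839.

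The counting error was of similar size. Estimated from the reads of each site, it would alone give a median SD of 0.10 in each genotype. The robust replicate SD was 0.10 in WT, 0.12 in Trdn-as KO and 0.08 in Mettl3 KO. In terms of variance, the replicates differed by 1.24 times the counting error in WT and by 1.61 times in Trdn-as KO. The 2 Mettl3 KO libraries differed by 0.785 times the counting error, less than the sampling noise, by 0.521 times at the strong sites and by 1.12 times at the 43427 distal sites of low Pol II with a mean CTCF value below 50. The reads in all peaks were 39.2% of the uniquely mapped reads in one of them and 32.1% in the other, and at the site inside Scd1 their values were 8 and 184. Whether they are independent libraries is not settled by these values. Their values are therefore given side by side without an SD, the main test enters both, and the counts of called sites are also given from a second test that enters their mean as 1 sample. Duplicate reads had been removed before counting, and the part of this step in the low spread was not tested. Between libraries of different genotypes the variance was 1.15 to 2.05 times the counting error over the 12 pairs.

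**Figure D2:**
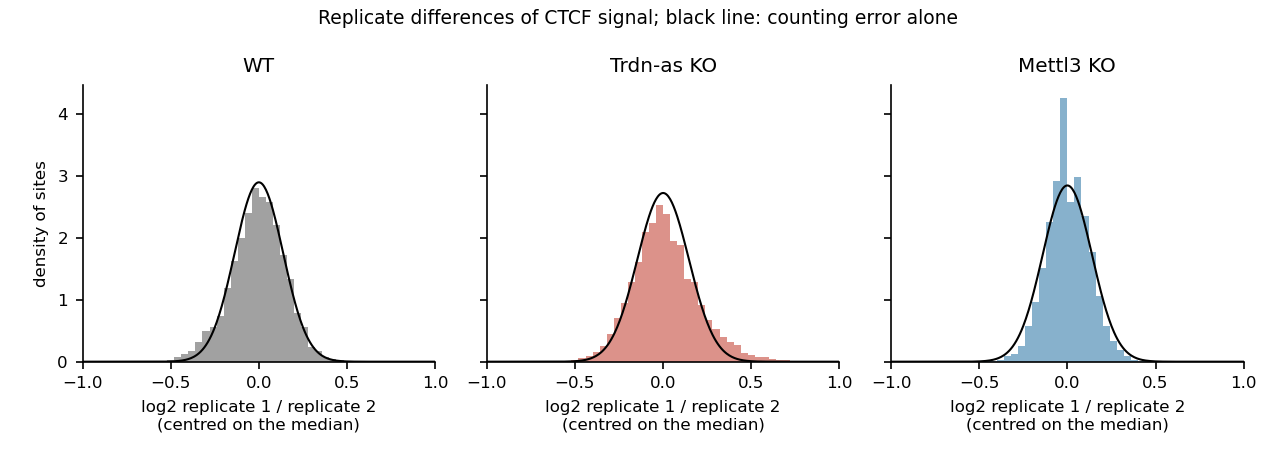
Distribution over the 6846 sites of the log2 ratio of CTCF replicate 1 to replicate 2 (horizontal axis, centred on its median) in each genotype, as a density (vertical axis). The black line is the width that counting error alone would give, and the Mettl3 KO distribution is narrower than it while Trdn-as KO is wider.

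The most even sites varied by a few percent over all 6 libraries. The site at chr2:154434716-154435414, inside Pxmp4, had CTCF values of 51 and 52 (WT), 51 and 53 (Trdn-as KO), and 52 and 51 (Mettl3 KO), a ratio of highest to lowest of 1.04. The site at chr11:105238296-105239052 inside Mrc2, which encodes an endocytic collagen receptor, ran from 80 to 84. The site at chr10:19115454-19116246 ran from 58 to 61. Over all 6846 sites the median ratio was 1.29, and it was at most 1.5 at 6346 sites (92.7%) and at least 2 at 17.

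The 3 largest ratios were of different kinds. At chr9:48606907-48607742, inside Zbtb16, the CTCF values were 76 and 77 (WT), 3 and 1 (Trdn-as KO), and 75 and 75 (Mettl3 KO), so the genotypes were separated and the replicates were close. At chr1:173166891-173167661, inside Cadm3, the Trdn-as KO libraries stood above the others. At chr19:44382955-44385493, inside the stearoyl-CoA desaturase gene Scd1, the values were 5 and 59 (WT), 36 and 11 (Trdn-as KO), and 8 and 184 (Mettl3 KO). There the replicates of every genotype disagreed and no genotype stood apart. Its mean of 50.5 was inside the bound through the library at 184. At 2538 nt it was the widest of the 6846 sites.

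The 3 highest IgG values were all in the Trdn-as KO IgG library, 112 at chr2:125501580-125502642, 112 at chr11:85408518-85409770 and 98 at chr3:82240861-82241544. They correspond to 17, 17 and 15 reads. The IgG values of WT and Mettl3 KO at these sites were 36 and 55, 20 and 28, and 25 and 14, and the CTCF values ranged from 64 to 99. None of the 3 highest IgG values coincided with a CTCF library that stood apart.

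CTCF was compared between genotypes with limma on log2(value + 1) over the 60649 peaks that reached a value of 10 in 2 or more CTCF libraries, with Benjamini-Hochberg adjustment at 0.05. The added 1 makes changes of low values look smaller than they are. Trdn-as KO and Mettl3 KO are each compared with the same WT libraries, and the third comparison shares libraries with both.

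Between Trdn-as KO and WT, 33 of the 6846 sites (0.482%) passed the test, against 0.587% of all peaks tested. Of these, 23 were higher in Trdn-as KO, where the background was 0.348% of all peaks, and 10 were lower, with a background of 0.239%. With the Mettl3 KO libraries as 1 sample, 3 sites passed, all lower, and the background was 0.0673%. With size factors recomputed from the CTCF libraries alone, 42 passed, 27 higher and 15 lower, with a background of 0.767%. These 42 contained all 33. The balance turned when uniquely mapped reads set the scale, with 5 higher and 9 lower, and it was 0 and 5 without the filter and 2 and 6 without the variance trend. The share of the sites that passed was near the background under the main test. Without either WT library no site passed, 1 passed without either Trdn-as KO library, and 3 without either Mettl3 KO library, so the number of sites called depended on the full set of libraries. Sites with an unadjusted p below 0.05 remained in the fits without a WT library. Their share was below that of all peaks without WT replicate 2 and above it without WT replicate 1. By size alone, 28 sites (0.409%) differed by at least 1.5-fold, against 3.51% of all peaks, many of which have low signal. This number was 41 without WT replicate 1 and 43 without Trdn-as KO replicate 2.

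At most sites the difference between these libraries could be bounded. The 95% interval of the difference lay within 1.5-fold in both directions at 6583 sites (96.2%), against 59.4% of all tested peaks, whose signal is lower on average. With the Mettl3 KO libraries as 1 sample it did so at 6048 sites (88.3%), against 31102 of 59431 peaks. The interval rests on the spread between the libraries, which may be technical. The median difference was 0.11 on the log2 scale at the sites and 0.04 over all peaks. With the CTCF-only size factors it was 0.07 and 0.00, and scaled by uniquely mapped reads 0.03 and -0.04. It was 0.19 at the sites without WT replicate 1 and 0.02 without WT replicate 2, so the choice of WT library moved it.

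The site inside Zbtb16 at chr9:48606907-48607742 had the largest difference. Zbtb16 encodes a zinc finger transcription factor. The means were 76.5 ± 0.707 in WT and 2.0 ± 1.41 in Trdn-as KO (SD, n = 2), and the values of both Trdn-as KO libraries lay far below those of WT. The difference was -4.78 ± 0.24 (log2, SE) with an adjusted p of 1.3e-09 in limma. Because the Trdn-as KO values are near 0, its size depends on the pseudocount, with -2.86 for a pseudocount of 10 and -5.07 for 0.5. The adjusted p was 0.027 with the Mettl3 KO libraries as 1 sample and ran from 1.5e-93 to 0.16 over the 22 alternatives, 20 of which called the site. IgG reads at the site were 13 in WT, 2 in Trdn-as KO and 7 in Mettl3 KO, and Pol II reads, summed over 2 libraries, were 22, 5 and 25. With WT values as low as those of Trdn-as KO, the mean of all CTCF libraries would have been below 50. The difference is thus tied to the choice of sites, and its p-values are a description only.

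The other 5 sites that fell most clearly kept part of their signal. At chr7:27000791-27002304, which lies 35570 nt from the start of Ltbp4, a gene for a latent TGF-beta binding protein, the values were 171 and 138 (WT), 47 and 43 (Trdn-as KO), and 144 and 135 (Mettl3 KO). Here the log2 difference was -1.75 ± 0.11 (adjusted p = 4.7e-08, and 0.034 with the Mettl3 KO libraries as 1 sample). At chr19:47370553-47371272 inside Sh3pxd2a, which encodes a podosome scaffold protein, the values were 79 and 71, 25 and 25, and 61 and 59 in the same order. These 2 sites and the one in Zbtb16 are the 3 that passed with the Mettl3 KO libraries as 1 sample. Values of 66 and 67 in WT against 23 and 27 in Trdn-as KO were found at chr17:24759122-24759992, 6373 nt from the start of Rab26. Near Ddx52, at chr11:83827001-83827742, WT had 76 and 65 and Trdn-as KO 25 and 27. Inside Nuf2, a kinetochore gene, the site at chr1:169344816-169346117 had WT values of 76 and 61 and Trdn-as KO values of 30 and 29. The rule that named the sites required the WT and Trdn-as KO libraries not to overlap. Other than at the site near Ltbp4, WT values as low as those of Trdn-as KO would have left the mean of all libraries below 50. The differences from WT there are tied to the choice of sites, and their p-values are a description only. At these sites, other than the one near Ltbp4, and at the one in Zbtb16, Mettl3 KO values as low as those of Trdn-as KO would have left the mean of all libraries below 50, so nothing is read from where the Mettl3 KO libraries lie. Their adjusted p-values in limma ran from 4.7e-08 to 6.8e-05 and, with the Mettl3 KO libraries as 1 sample, from 0.034 to 0.17.

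Of the 33 sites that passed, 8 of the 10 lower and 8 of the 23 higher had a genotype mean below 50, 16 in all. The sites inside Tmem72 and Cadm3 are among them, and they reached the bound of 50 only through their Trdn-as KO libraries, so their differences are tied to the choice of sites and their values are a description, with no test. At chr6:116674368-116675191, inside Tmem72, the values were 36 and 25 (WT), 92 and 101 (Trdn-as KO), and 26 and 26 (Mettl3 KO). At chr1:173166891-173167661, inside Cadm3, a gene for a cell adhesion molecule, the values were 37 and 33, 90 and 107, and 25 and 30 in the same order.

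The site inside Parva, which encodes an actin-binding protein of focal adhesions, was higher in both knockouts. At chr7:112068656-112069871 the values were 68 and 60 (WT), 116 and 129 (Trdn-as KO), and 111 and 113 (Mettl3 KO). Its log2 difference from WT was 0.93 ± 0.11 in Trdn-as KO (adjusted p = 6.8e-05) and 0.80 ± 0.11 in Mettl3 KO (adjusted p = 0.009), both in limma and against the same WT libraries. With the Mettl3 KO libraries as 1 sample the adjusted p-values were 0.17 and 0.85. The remaining sites named by the rule were chr12:117348732-117349545, with WT values of 50 and 40 and Trdn-as KO values of 77 and 93, again a site that reached the bound only through Trdn-as KO, and chr6:129043517-129044475, 21132 nt from the start of Klrb1f, with 59 and 55 against 92 and 115. The last was chr9:34894459-34895581 inside Kirrel3, with 86 and 85 against 135 and 131.

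**Figure D3:**
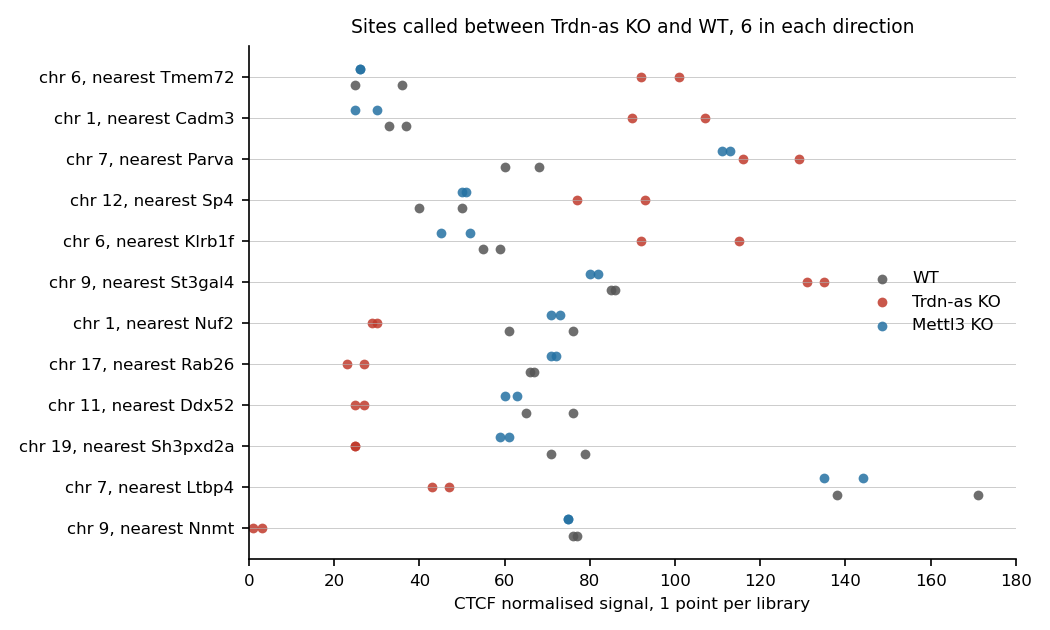
CTCF normalised signal (horizontal axis) at the 6 sites with the smallest adjusted p in each direction between Trdn-as KO and WT, with 1 point per library and the nearest gene start named. The WT and Trdn-as KO points do not overlap at any of the sites, as the rule for naming them required, and at the site nearest Parva the Mettl3 KO points lie at 111 and 113.

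Of the 23 sites that rose, 10 were on chromosome 9, which held 381 of the 6846 sites, and 9 of those lay in one stretch. In this stretch, chr9:34409721-37548218, 14 neighbouring sites in a row were higher in Trdn-as KO than in WT, with log2 differences from 0.29 to 0.67 and a median of 0.52, or 1.43-fold. The stretch was found after the values were seen and has no test of its own. The sites at chr9:34941963-34942676, chr9:36801698-36802389 and chr9:37547484-37548218 reached the mean of 50 only through Trdn-as KO. The choice of sites therefore bears on the row and its median. The summed reads of the 14 sites, scaled to the reads in all peaks (reads per 1000000), were 361 and 356 (WT), 498 and 504 (Trdn-as KO), and 354 and 351 (Mettl3 KO). The Mettl3 KO libraries were thus at the WT level. The 10 sites on the left of the stretch had a median difference of 0.12 and the 10 on its right 0.09, near the median of 0.11 over all sites.

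The other peaks of the same stretch moved with these sites in all 3 kinds of library. Over 146 further peaks in it, the ratio of Trdn-as KO to WT was 1.44 for CTCF, 1.45 for Pol II and 1.52 for IgG, each scaled to the reads in all peaks. The IgG ratio rests on 1220 reads for WT and 623 for Trdn-as KO. The ratio of Mettl3 KO to WT was 0.982, 1.00 and 1.01. At the 14 sites themselves the Pol II ratio was 2.06, from 62 and 111 reads in the WT libraries and 152 and 98 in those of Trdn-as KO, and the IgG ratio was 1.04, from 146 and 51 reads. The input libraries, which were not analysed here, and the DNA of these mice were not examined, and the part of DNA content in the result was not tested. Over all 6675 runs of 10 neighbouring sites on one chromosome, the median difference between Trdn-as KO and WT ran from -0.06 to 0.56. The highest was in this stretch, and away from chromosome 9 the highest was 0.28. Without the 14 sites, 24 sites passed the test between Trdn-as KO and WT, 14 higher and 10 lower.

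**Figure D4:**
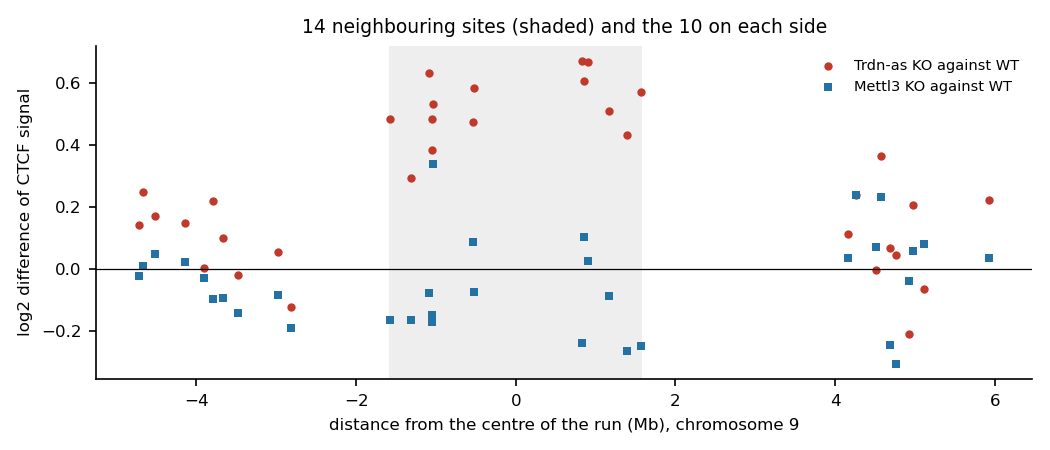
Log2 difference of CTCF signal (vertical axis) at the 14 neighbouring sites on chromosome 9 (shaded) and the 10 on each side, against the distance in Mb from the centre of the stretch. In the shaded part Trdn-as KO against WT lies between 0.29 and 0.67, and the medians on both sides are 0.12 and 0.09.

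Between Mettl3 KO and WT, 3 of the 6846 sites (0.0438%) passed the test, against 0.185% of all peaks. The site that was higher, with a background of 0.0989%, is the one inside Parva, and 2 were lower, with a background of 0.0857%. At chr11:58478715-58479447 the values were 84 and 78 (WT), 58 and 67 (Trdn-as KO), and 44 and 43 (Mettl3 KO), a log2 difference of -0.88 ± 0.12 (adjusted p = 0.01 in limma). With WT values as low as those of Mettl3 KO, the mean of all libraries would have been just below 50 there. The difference at this site is thus tied to the choice of sites. At chr6:82096025-82097094 the values were 87 and 70, 75 and 77, and 49 and 51, a difference of -0.63 ± 0.13 (adjusted p = 0.049 in limma). With the Mettl3 KO libraries as 1 sample no site passed in limma, with a background of 0% of all peaks called. In that test 113 sites (1.65%) had an unadjusted p below 0.05, against 5.39% of all peaks, and in the main test 663 (9.68%), against 15.7%. The CTCF-only size factors gave 26 sites, 17 higher and 9 lower, with a background of 1.09%. Pol II at the promoters of the 3 fibroblast markers Col1a1, Dcn and Pdgfra summed to 417 and 427 (WT), 626 and 434 (Trdn-as KO), and 853 and 862 (Mettl3 KO), and its part in the CTCF result was not tested. None of these 3 promoters was at 0. The 3 calls were also lost when any 1 CTCF library was left out. The 95% interval lay within 1.5-fold at 6490 sites (94.8%), against 55.1% of all peaks, and 4 sites (0.0584%) differed by at least 1.5-fold, against 6.49% of all peaks. The latter number was 2 without WT replicate 1, 55 without WT replicate 2, of which 48 were lower, and 10 without either Mettl3 KO library. With the Mettl3 KO libraries as 1 sample the interval lay within 1.5-fold at 5018 sites.

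Between Trdn-as KO and Mettl3 KO, 85 sites (1.24%) passed, against 1.37% of all peaks. Of these 74 were higher in Trdn-as KO, with a background of 0.948%, and 11 lower, with a background of 0.417%. A genotype mean below 50 was found at 39 of the 85, 30 higher and 9 lower, so that the choice of sites bears on them. An unadjusted p below 0.05 was found at 1979 sites (28.9%), against 18.8% of all peaks. The CTCF-only size factors gave 87 sites, 64 higher and 23 lower, with a background of 1.99%, and moved the median difference at the sites from 0.18 to 0.08. The split was 7 higher and 10 lower when uniquely mapped reads set the scale, beside 205 and 287 of 60380 peaks. It was 2 and 5 without the filter, beside 44 and 31 of 101244 peaks. Without the variance trend it was 2 and 6, beside 134 and 110 of 60649 peaks. With the Mettl3 KO libraries as 1 sample no site passed in limma and the background was 0.0337%. In that test 424 sites (6.19%) had an unadjusted p below 0.05, against 6.30% of all peaks. Leaving out 1 CTCF library at a time left 0 to 2 sites. The interval lay within 1.5-fold at 5930 sites (86.6%), against 53.3% of all peaks, and at 3798 with the Mettl3 KO libraries as 1 sample. At least 1.5-fold differences were found at 44 sites (0.643%), against 6.26% of all peaks, and at 122 sites without Trdn-as KO replicate 1. The 6 lower sites with the smallest adjusted p are those described above near Nnmt, Ltbp4, Rab26, Sh3pxd2a, Nuf2 and Ddx52, the first being the site inside Zbtb16. Other than at the one near Ltbp4, the bound of 50 itself required Mettl3 KO values above those of Trdn-as KO there, so these calls are tied to the choice of sites. Among the higher sites, chr19:41635083-41635984 had 98 and 105 (Trdn-as KO) against 54 and 55 (Mettl3 KO), and chr9:36801698-36802389, in the chromosome 9 stretch, had 73 and 83 against 43 and 39. The other 4 were the sites inside Cadm3, Tmem72 and Kirrel3 and the one near Klrb1f. The sites at chr9:36801698-36802389 and inside Cadm3 and Tmem72 reached the bound only through Trdn-as KO.

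**Figure D5:**
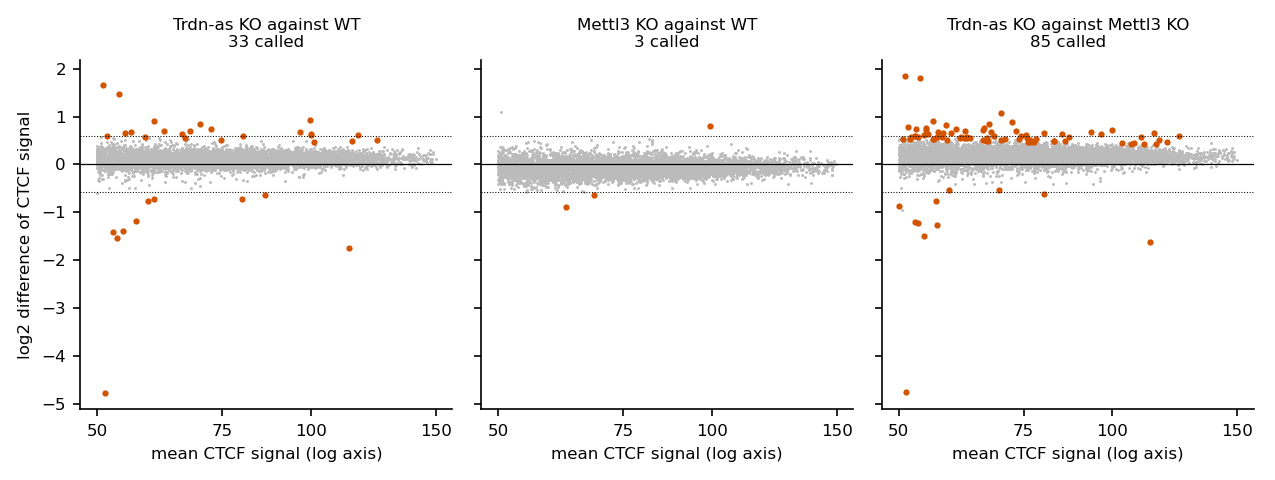
Log2 difference of CTCF signal (vertical axis) against the mean CTCF signal (horizontal axis, log scale) at the 6846 sites for the 3 comparisons. Orange points passed the test (33, 3 and 85 sites), and dotted lines mark 1.5-fold.

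The other distal sites were tested in the same fit. Among the sites of low Pol II with a mean CTCF value of 20 to below 50, 49 of 6413 (0.764%) passed in the Trdn-as KO comparison with WT and 15 (0.234%) in that of Mettl3 KO. Among the 2138 sites with Pol II, 9 (0.421%) and 7 (0.327%) passed. None of the 96 strong sites passed in any of the 3 limma comparisons, while 19, 7 and 49 had an unadjusted p below 0.05 in the order used above. Whether these shares differ was not tested.

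The sites near the edited genes were few. None passed the limma test in the comparison of that knockout with WT, beside 0.587% of all peaks for Trdn-as KO and 0.185% for Mettl3 KO, and nothing is read from this count. Over all peaks 10.2% and 15.7% had an unadjusted p below 0.05. Within 5 Mb of the start of the antisense gene at Trdn there were 8 sites, the nearest 730458 nt away, and their log2 differences between Trdn-as KO and WT ran from -0.06 to 0.31, with an unadjusted p below 0.05 at 1. Within 5 Mb of Mettl3 there were 31, with differences between Mettl3 KO and WT from -0.42 to 0.11 and an unadjusted p below 0.05 at 3. The nearest of these, at chr14:52532801-52533746, had 76 and 66 (WT), 66 and 81 (Trdn-as KO), and 67 and 59 (Mettl3 KO), and the 3 pairs of libraries overlapped.

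A first list held loci known for CTCF or domain borders. Of 25 such genes, 13 had a promoter peak in the table and 7 had a site within 200 kb, 17 sites in all. None passed in limma in any of the 3 comparisons, with either treatment of the Mettl3 KO libraries, beside 0.587%, 0.185% and 1.37% of all peaks in the main test, and nothing is read from this count. An unadjusted p below 0.05 was found at 2, 2 and 9 of them, beside 10.2%, 15.7% and 18.8% of all peaks. The differences between Trdn-as KO and WT ran from -0.01 to 0.28 with a median of 0.13, beside 0.11 for all the sites described and 0.04 for all peaks. At the imprinted H19 locus the nearest site, chr7:142164036-142164748, lies 32506 nt from the start of H19 and had 86 and 79 (WT), 87 and 94 (Trdn-as KO), and 79 and 72 (Mettl3 KO). The genotypes differed there by at most 0.26 on the log2 scale. Near Shh, which encodes a secreted morphogen, chr5:28655974-28656749 had 78 and 72, 64 and 88, and 62 and 72. Near Ihh, another hedgehog ligand with 7 sites within 200 kb, chr1:75003419-75004216 had 67 and 48, 61 and 70, and 49 and 50. Near Shh the ranges of all genotypes overlapped, and near Ihh the WT range overlapped with both others. The nearest sites of Wnt6, Grb10, Kcnj2 and Peg3 had CTCF means of 54.2 to 63.7.

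A second list held genes of cardiac contraction, conduction and development, together with Mettl3. Of these 28 genes, 27 had a promoter peak and 20 had a site within 200 kb, 52 sites in all. None passed in limma in any comparison, with either treatment of the Mettl3 KO libraries, and nothing is read from this at the background shares given above. An unadjusted p below 0.05 was found at 3, 4 and 14 sites. Relative to WT their differences ran from -0.08 to 0.32 for Trdn-as KO and from -0.41 to 0.31 for Mettl3 KO. The site at chr1:135756399-135757286, 7250 nt from the start of the troponin T gene Tnnt2, had 61 and 70 (WT), 76 and 65 (Trdn-as KO), and 77 and 74 (Mettl3 KO). The site at chr10:56244969-56245644, 8120 nt from the start of Gja1, which encodes the gap junction protein connexin 43, had 83 and 66, 69 and 81, and 60 and 65. The myosin heavy chain genes Myh6 and Myh7 shared their nearest site, chr14:55261305-55262285, with 74 and 64, 73 and 80, and 65 and 64. The WT and Trdn-as KO ranges overlapped at these 3 sites, while both Mettl3 KO values lay above WT near Tnnt2 and below WT near Gja1. The highest signal among the nearest sites was at chr7:142704690-142706730 near the potassium channel gene Kcnq1, with 126 and 116, 114 and 119, and 117 and 111. No site lay within 200 kb of Ryr2, Actc1, Gata4, Pln, Atp2a2, Trdn or Jph2.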

How the data were processed

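The authors trimmed reads with Trimmomatic 0.39, aligned them to GRCm39 (mm39) with STAR 2.7.11b, removed duplicates with Picard 3.1.1 together with spliced and multi-mapping reads, merged called peaks into 101256 regions, counted reads with featureCounts and scaled these counts by DESeq2 size factors. What they deposited is the resulting normalised signal of 15 single libraries as whole numbers. The design assumed that count data might be found, but the values are a normalised signal, so limma 3.58.1 (R 4.3.3) was fitted to log2(value + 1) over the 6 CTCF libraries with genotype as the factor and a variance trend, and adjusted by Benjamini-Hochberg over all 60649 peaks tested. The value of 1 read was estimated from the spacing of values in each library, and CTCF read numbers are therefore estimates. Coordinates and gene positions are those of the deposited table in GRCm39. The sequence reference used here is of another build, so no sequence was read. Python 3.11.15 was used for the other steps.

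The sites, gene lists and tests were chosen with earlier results of these data known. The sites named are, per comparison, up to 6 higher and 6 lower with the lowest adjusted p under 0.05 whose 2 libraries lay on one side of both libraries of the other genotype, 2 inside and 2 outside each bound, the 3 smallest and 3 largest ratios of highest to lowest CTCF library, the 3 highest IgG values, and the nearest site within 200 kb of the genes of 2 lists. The stretch on chromosome 9 was chosen after its values were seen. Alternatives were other scalings, pseudocounts of 0.5 and 10, no filter, no variance trend, robust estimation, only the compared genotypes, a replicate block, an adjusted p of 0.01, no chromosomes 10 and 14, and each library left out. The averaged Mettl3 KO libraries, the crossed block, combined settings and the count without the chromosome 9 stretch were added after seeing the data. Where a genotype was left with 1 library, that library was assumed to vary like those of the other genotypes.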

Additional observations from a re-analysis of the deposited data

How the results depend on the processing

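The number of sites that passed changed with the scaling, the filter, the variance model, the libraries entered and the threshold. Values are given in the order Trdn-as KO against WT, Mettl3 KO against WT and Trdn-as KO against Mettl3 KO, with 33, 3 and 85 in the report. Scaling by the uniquely mapped reads gave 14, 3 and 17, beside 285, 151 and 492 of all 60380 peaks tested. Without the filter the counts were 5, 0 and 7, beside 58, 0 and 75 of 101244 peaks. They were 8, 0 and 8 without a variance trend, beside 156, 0 and 244 of 60649 peaks. Robust estimation gave 50, 40 and 246, beside 541, 1018 and 1898 of 60649 peaks. With only the compared genotypes they were 3, 0 and 2, beside 40, 0 and 28 of 58429, 57769 and 57989 peaks. At an adjusted p of 0.01 they were 19, 1 and 29. For Mettl3 KO against WT they were 26 with CTCF-only size factors and 22 with scaling to total CTCF signal, beside 644 and 627 of 59219 peaks. With the 2 Mettl3 KO libraries averaged they were 3, 0 and 0, and with CTCF-only size factors added 30, 1 and 17. With both Mettl3 KO libraries entered, CTCF-only size factors and no variance trend gave 8, 0 and 8, beside 154, 0 and 260 of 59219 peaks. Where 0 sites passed in limma for Mettl3 KO against WT, 113 to 1488 sites had an unadjusted p below 0.05. Leaving out 1 CTCF library at a time gave 0 to 3, 0 to 0 and 0 to 2. The cause of these changes was not tested, beyond the fewer libraries in the last settings.

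Replicate numbers did not pair the libraries. The replicate differences of the genotypes correlated over the 6846 sites with r = -0.45 (WT and Trdn-as KO), 0.107 (WT and Mettl3 KO) and -0.02 (Trdn-as KO and Mettl3 KO). The replicate block gave 22, 0 and 35 sites, beside 236, 2 and 376 of 60649 peaks. With CTCF-only size factors added it gave 44 for Trdn-as KO against Mettl3 KO, beside 567 of 59219 peaks. A crossed pairing of WT and Trdn-as KO numbers gave 46, 24 and 230 sites, beside 473, 657 and 1695 of 60649 peaks.

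The number of sites with an interval within 1.5-fold stayed within 1.5 times its value in the report except for Trdn-as KO against Mettl3 KO, where it was 3798 with the Mettl3 KO libraries averaged and 3730 to 5835 with 1 library left out. The median replicate SD of 0.12 became 0.17 when uniquely mapped reads set the scale and 0.0955 with CTCF-only size factors. The 27 differences at named sites lost their call in 241 of 594 values under the alternatives. Their direction held in all of them, but the rule that named these sites required the compared libraries not to overlap. Nothing is therefore read from the kept direction. IgG depth limits the comparison with background, since a typical site held 3.05 to 9.03 IgG reads.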
